A study of Mus musculus with 6 samples.

Results

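The genes described are 10 core components of TGF-beta and bone morphogenetic protein (BMP) signalling, namely the ligand Tgfb1, the receptors Tgfbr1, Tgfbr2 and Bmpr1a, and the Smad genes Smad1, Smad2, Smad3, Smad4, Smad5 and Smad7. They were chosen by name as 10 of the 18193 genes with a probe set annotated to exactly 1 symbol, and they hold 30 of the 45037 probe sets tested. Each gene is represented by its brightest probe set, judged by the average of all 6 arrays. The samples are whole-genome Affymetrix mouse arrays of LKS+ cells, blood-forming stem and progenitor cells that lack lineage markers and carry high cKit and Sca-1, sorted from 3 wild-type (WT) and 3 Apcmin mice. The Min allele is an early stop codon in Apc, a gene that restrains beta-catenin, and as an inherited allele it is present in all cells of these mice and not only in the sorted ones. The labels name no strain, age, sex or treatment. By its title the study concerned stem cell function in this mouse and its use to model MPD/MDS, and the comparison asks which transcripts differ between the genotypes. Each array was taken as 1 mouse, since the labels count sorted cells per mouse (at least 20000, at a purity over 90%), although no label names the animals. If the arrays of a genotype were not separate animals, the p-values measure only the spread between arrays.

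TGF-beta binds Tgfbr2, which recruits and phosphorylates Tgfbr1, and Tgfbr1 then phosphorylates Smad2 and Smad3. BMPs act through type I receptors such as Bmpr1a on Smad1 and Smad5. Both groups of Smads join Smad4 to enter the nucleus, and Smad7 is an induced inhibitor that binds the activated receptors. In blood-forming cells, TGF-beta is known as a brake on the division of stem cells.

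None of the 10 genes differed between the genotypes past the threshold. In limma 0 of the 10 had an adjusted p under 0.05, against 0 of 45037 probe sets (0.0%), and the adjusted p of the 10 lay between 0.954 and 0.989. At an unadjusted p under 0.05 there were also 0 of the 10, where 3.11% of genes lay under it. On the log2 scale the Apcmin mean was above the WT mean for 6 of the 10 and below it for 4, where 43.0% of all genes were above and 57.0% below. The median difference was 0.09, beside -0.04 over all genes. A mean log2 intensity of at least 6 was reached by 9 of the 10, with Bmpr1a as the exception. The 95% confidence intervals of those 9 differences, taken one by one, ran from -0.61 at the lowest to 0.97 at the highest, so none reached beyond a change of 1.96-fold in either direction. Their median absolute difference was 0.13, beside 0.11 over the 8658 genes of that brightness. Intensities of different probe sets depend on the probes, so the level of one gene was not set against that of another.

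**Figure D1:**
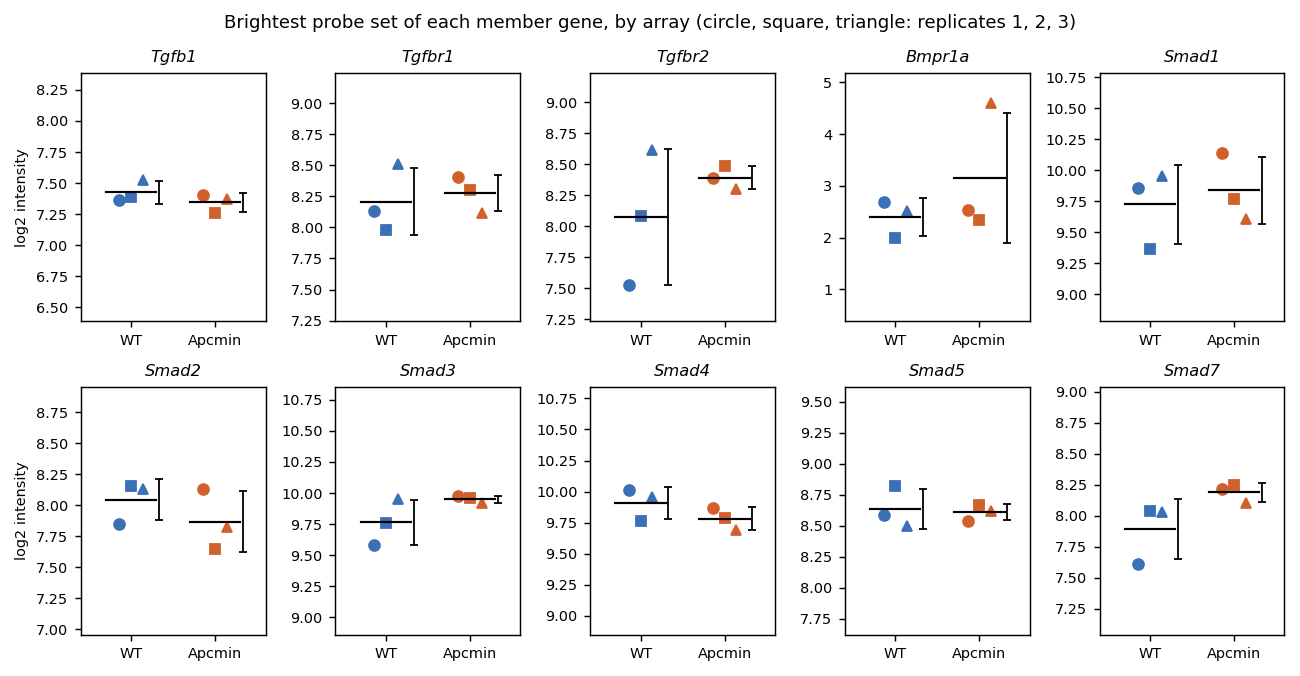
Log2 intensity of the brightest probe set of each of the 10 genes on the 3 WT (blue) and 3 Apcmin (orange) arrays, with the mean as a line and the SD as a bar. The vertical span is the same in each panel except Bmpr1a, which has a wider one, and only in Smad7 do the 3 Apcmin points all lie on one side of the 3 WT points.

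The arrays were alike in overall brightness, with between 33.3% and 34.5% of probe sets at a log2 intensity of at least 6. Of the 9 measured markers of stem and progenitor cells, all 9 were bright. Their Apcmin minus WT differences ran from -0.22 (Slamf1) to 0.20 (Hlf). Of the 9, 7 were higher in Apcmin and 2 lower, where 43.0% of all genes were higher. Kit, a marker used in the sort, and Cd34 differed by 0.07 and 0.001. The Y-linked genes Eif2s3y, Kdm5d and Uty had a mean log2 intensity of 7.32 on WT replicate 3 and 7.04 on Apcmin replicate 2, and between 0.98 and 1.23 on the other 4 arrays. Each genotype therefore had 1 array that stood apart in this respect, and without both arrays the difference of Tgfbr2 was 0.54, that of Smad7 0.33 and that of Tgfbr1 0.21.

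Tgfb1, the ligand that blood-forming cells and platelets make, was at 7.36, 7.38 and 7.53 on WT replicates 1, 2 and 3 and at 7.41, 7.26 and 7.37 on the Apcmin replicates. The genotypes overlapped, and Tgfb1 had the narrowest spread over all 6 arrays of the 10 genes. The difference, given here and below as Apcmin minus WT, was -0.08 (95% confidence interval from -0.40 to 0.25; limma, adjusted p = 0.963), and it was 0.01 without both arrays of high Y-linked signal. Its other probe set was dim, with 4.18 ± 0.09 (SD, n = 3) for WT against 3.93 ± 0.12 for Apcmin and with the 3 Apcmin values below the 3 WT values. Markers of megakaryocytes and platelets, a further source of Tgfb1, had 4 of 5 measured members lower in Apcmin, where 57.0% of all genes were lower. Their summed intensity lay between 346 and 621 in WT and between 302 and 473 in Apcmin, and its part in the Tgfb1 level was not tested. In sorted cells measured in bulk, fewer cells of a type and less RNA per cell cannot be told apart.

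Tgfbr1, the type I TGF-beta receptor, was at 8.13, 7.98 and 8.51 in WT and at 8.41, 8.30 and 8.12 in Apcmin. The values overlapped, with WT replicate 3 the highest and WT replicate 2 the lowest of all. The difference was 0.07 (standard error 0.19; limma, adjusted p = 0.975). The 2 dimmer Tgfbr1 probe sets each separated the genotypes and did so in opposite directions. The brighter of them was at 4.83, 4.85 and 5.06 in WT and at 5.41, 5.65 and 5.17 in Apcmin, a difference of 0.50. The dimmer one was at 2.07, 2.20 and 2.31 in WT and at 1.51, 1.69 and 1.91 in Apcmin, a difference of -0.49. Neither passed (limma, adjusted p = 0.954 for both). The dimmer one lies wholly under a floor of 4, and adding 16 to each intensity before the log left a difference of -0.09.

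Tgfbr2, the type II receptor that binds the ligand, was at 7.52, 8.08 and 8.61 in WT and at 8.38, 8.48 and 8.30 in Apcmin. The WT arrays held both the lowest and the highest value, and the 3 Apcmin values lay between them. The SD was 0.55 in WT and 0.09 in Apcmin. The difference of 0.32 (standard error 0.28; limma, adjusted p = 0.954) turned on single WT arrays. It was 0.04 without WT replicate 1, the lowest array, and 0.59 without WT replicate 3, the highest (limma, adjusted p = 0.362). The 2 other Tgfbr2 probe sets were dim, with means of 3.84 and 1.10, and differed by -0.30 and 0.02.

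Bmpr1a, a type I BMP receptor, was dim in each of its 6 probe sets, whose means lay between 1.18 and 2.78, under the medians of the arrays (4.12 to 4.18). The brightest was at 2.69, 2.00 and 2.52 in WT and at 2.53, 2.33 and 4.60 in Apcmin. Only Apcmin replicate 3 was high, the other 5 arrays overlapped, and without that array the difference fell from 0.75 to 0.03. The next brightest was at 3.49, 3.30 and 2.57 in WT and at 2.32, 1.47 and 2.33 in Apcmin, lower on each Apcmin array by a mean difference of -1.08 (limma, unadjusted p = 0.0146, adjusted p = 0.954). In all, 4 of the 6 probe sets had a lower mean in Apcmin, and 55.6% of all probe sets did. With values under 4 set to 4, no difference was left in the second of these, and 0.20 was left in the brightest. No level or direction can be given for this gene at these intensities.

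Smad1, which carries the BMP signal, was at 9.86, 9.36 and 9.95 in WT and at 10.14, 9.77 and 9.61 in Apcmin. The values overlapped, and the difference was 0.11 (standard error 0.22; limma, adjusted p = 0.966). It turned to -0.07 without WT replicate 2, the lowest array, and to -0.04 without Apcmin replicate 1, the highest. Both other Smad1 probe sets had the same sign, at 0.19 for the bright one and 0.46 for the dim one.

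Smad5, the close relative of Smad1 with the same role, was at 8.59, 8.82 and 8.50 in WT and at 8.54, 8.66 and 8.62 in Apcmin. The Apcmin values lay inside the WT range. Its difference of -0.03 was the smallest of the 10 genes in size, with a confidence interval from -0.38 to 0.33 (limma, adjusted p = 0.989). All 3 Smad5 probe sets were bright, and the other 2 differed by 0.06 and 0.0050.

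Smad2, a carrier of the TGF-beta signal, was at 7.85, 8.15 and 8.13 in WT and at 8.13, 7.65 and 7.82 in Apcmin. Apcmin replicate 1 lay among the WT values and the other Apcmin arrays lay below them. The difference was -0.17 (standard error 0.18; limma, adjusted p = 0.954). Its other probe set, at a mean of 5.82, also differed by -0.17.

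Smad3, the second carrier of the TGF-beta signal, was at 9.58, 9.76 and 9.95 in WT and at 9.97, 9.96 and 9.92 in Apcmin. The Apcmin arrays were close together and high, and WT replicate 3 alone among the WT arrays reached them. The SD was 0.18 in WT and 0.03 in Apcmin, and the difference was 0.19 (standard error 0.15; limma, adjusted p = 0.954). A dim Smad3 probe set with a mean of 4.29 went the other way by -0.35, so that the mean over the 3 Smad3 probe sets differed by -0.05.

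Smad4, the partner that both groups of Smads share, was at 10.01, 9.76 and 9.95 in WT and at 9.87, 9.79 and 9.69 in Apcmin. The values overlapped, with Apcmin replicates 1 and 2 above WT replicate 2. The difference was -0.13 (standard error 0.14; limma, adjusted p = 0.954), and the 2 other bright Smad4 probe sets differed by -0.03 and -0.40. Smad4 kept its sign in each alternative that was run, though some of these cannot change a difference.

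Smad7, the inhibitor that the pathway itself induces, was at 7.61, 8.04 and 8.03 in WT and at 8.22, 8.25 and 8.10 in Apcmin. The lowest Apcmin value exceeded the highest WT value by 0.06. It was the only one of the 10 genes whose groups did not overlap, as was the case for 7.73% of all genes, and for 2.97% with Apcmin the higher group. The difference of 0.29, or 1.23-fold, had the smallest p of the 10 (limma, unadjusted p = 0.127, adjusted p = 0.954) and a confidence interval from -0.11 to 0.70. Without WT replicate 1 it was 0.15. The other Smad7 probe set, whose name marks probes that can match other transcripts, averaged 6.69 ± 0.40 (SD, n = 3) for WT against 6.72 ± 0.10 for Apcmin, and the groups overlapped.

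The brightest probe sets of Tgfbr2, Smad3 and Smad7 had similar profiles over the 6 arrays. WT replicate 1 was the lowest array for each of them, at 0.71, 0.27 and 0.43 below the mean of the 6 arrays, and all 3 genes were above that mean on each Apcmin array. Over the 6 arrays Pearson's r between Tgfbr2 and Smad3 was 0.96, with an exact permutation p of 0.0125 and an adjusted p of 0.3125 over the 45 pairs of the 10 genes. Spearman's rho was 0.77 (exact permutation p = 0.103, adjusted p = 0.766). Without WT replicates 1 and 3, the arrays farthest from the median of Tgfbr2, r was 0.95. Between Smad3 and Smad7 r was 0.91 (exact permutation p = 0.0194, adjusted p = 0.3125) and rho was 0.77 (exact permutation p = 0.103, adjusted p = 0.766). Without WT replicates 1 and 2 r was 0.61. Between Tgfbr2 and Smad7 r was 0.86 (exact permutation p = 0.0611, adjusted p = 0.393) and rho 0.43 (exact permutation p = 0.419, adjusted p = 0.944), and without WT replicates 1 and 3 r was 0.95. Without WT replicate 1 alone these values of r were 0.84, 0.60 and 0.22, so the size of r with Smad7 depended on which arrays were kept. The likeness was noticed after the values were seen, and 0 of 45 pairs passed after adjustment. The likeness did not extend to the other bright Smad7 probe set, which was at its highest on WT replicate 1. That probe set was at 7.13 there and between 6.34 and 6.83 on the other arrays.

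**Figure D2:**
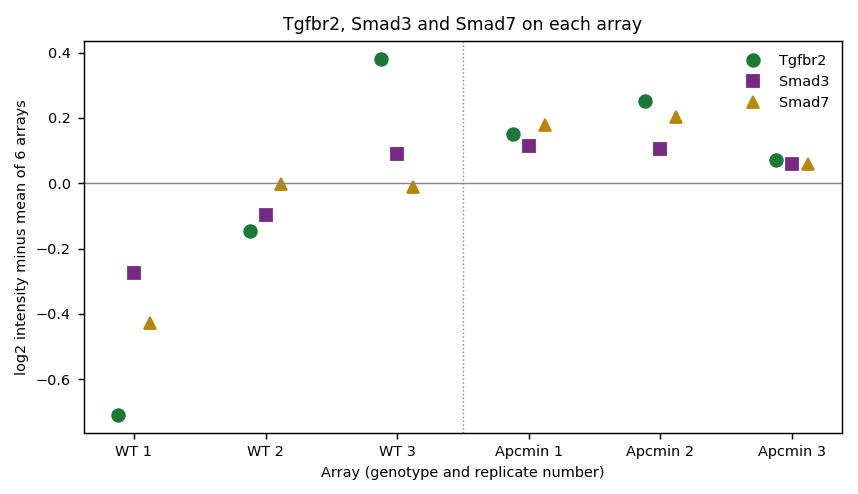
Log2 intensity of the brightest probe sets of Tgfbr2, Smad3 and Smad7 on each array, as the deviation from the gene's mean over the 6 arrays. The 3 genes are lowest on WT replicate 1 and above 0 on each Apcmin array, while on WT replicate 3 Tgfbr2 is at 0.38, Smad3 at 0.09 and Smad7 at -0.01.

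The 9 stem and progenitor markers had a summed intensity of 7559 on WT replicate 1 and between 8313 and 8753 on the other 5 arrays. Kit, Flt3, Procr, Gata2 and Hlf had their lowest value there, and Cd34, Slamf1, Meis1 and Mecom did not. The sum of the 7 neutrophil and monocyte markers was 1429 there and between 1667 and 2412 elsewhere, and the granule genes Ngp, Camp and Ltf carried it. These were at 8.34, 9.03 and 6.01 on WT replicate 1, the lowest of the 6 arrays for each. Other genes of that list went the opposite way, and Cd14, Csf1r and Itgam were at their highest there, at 4.90, 8.87 and 2.86. The part of these markers in the low values of Tgfbr2, Smad3 and Smad7 was not tested.

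The stretches before the starts of Tgfbr2 and Smad3 are shown because this pair had the highest Pearson's r over all 6 arrays. By Spearman's rho, and by r without WT replicate 1, Tgfbr1 and Smad1 (0.89 and 0.92) were above it. They are the 250 bases upstream of each start, from RefSeq on GRCm38.p6, at chr9:116175364-116175613 for Tgfbr2 and chr9:63757995-63758244 for Smad3, both on the minus strand and written 5′ to 3′ in the direction of the gene. Capitals mark AGAC or its reverse complement GTCT, the core that Smad proteins bind.
Tgfbr2 upstream: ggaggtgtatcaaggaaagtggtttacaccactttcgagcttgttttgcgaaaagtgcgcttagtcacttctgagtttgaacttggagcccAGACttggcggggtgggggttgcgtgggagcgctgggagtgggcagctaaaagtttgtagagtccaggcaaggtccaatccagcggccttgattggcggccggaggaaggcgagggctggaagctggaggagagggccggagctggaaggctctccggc
Smad3 upstream: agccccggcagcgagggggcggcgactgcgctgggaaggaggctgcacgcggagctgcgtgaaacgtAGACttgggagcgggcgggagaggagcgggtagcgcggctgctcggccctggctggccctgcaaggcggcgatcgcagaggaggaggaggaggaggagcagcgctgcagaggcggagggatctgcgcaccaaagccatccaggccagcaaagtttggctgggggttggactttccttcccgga

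Each stretch held 1 match to AGAC, beginning 159 bases before the start of Tgfbr2 and 183 bases before that of Smad3, and 82.9% of the 32851 windows of this length held at least 1 on either strand. The longer form CAGAC, searched on both strands and containing the core, was found in Tgfbr2 and not in Smad3, and 42.2% of windows held it. On either strand the GC box GGGCGG had 2 matches in Smad3 and 0 in Tgfbr2, and was present in 32.7% of windows. The bases were 58.4% G or C in Tgfbr2 and 69.2% in Smad3, beside a median of 52.4%. These matches describe the letters and show no binding.

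Other pairs went together or apart. Tgfbr1 and Smad1 had an r of 0.84 (exact permutation p = 0.0292, adjusted p = 0.323) and a rho of 0.89 (exact permutation p = 0.0333, adjusted p = 0.75), and without WT replicates 2 and 3 r was 0.78. The brightest probe sets of Smad1 and Smad5, the 2 BMP Smads, ran opposite to each other. Their r was -0.89 (exact permutation p = 0.0208, adjusted p = 0.3125) and their rho -0.89 (exact permutation p = 0.0333, adjusted p = 0.75). Without WT replicate 2 and Apcmin replicate 1 r was -0.72. In these probe sets WT replicate 2 was the lowest array for Smad1 and the highest for Smad5. The second brightest probe set of each gene was also bright, and these 2 did not run opposite. Both were lowest on WT replicate 1 (8.75 for Smad1, 7.25 for Smad5) and highest on WT replicate 3 (9.56 and 8.57). The median r over the 45 pairs was 0.08, so the 10 genes did not share one profile.

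The genes most like Smad7 among 8657 bright genes, by Pearson's r over the 6 arrays, were Vps16 (0.99), Ywhah (0.99) and Pias3 (0.99), and 195 genes had an r over 0.9. The genes most like Bmpr1a were Ifngr2 (0.98), Ap3d1 (0.97) and Immt (0.96). An r over 0.9 with Bmpr1a was reached by 29 of 8658 genes, and that profile was set by Apcmin replicate 3 alone, in a gene too dim to give a level. These values are given as a description.

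The spread between arrays was larger in WT than in Apcmin for 8 of the 10 genes, all but Bmpr1a and Smad2, and this was so for 64.1% of all genes.

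Of all 30 probe sets, 15 lay above and 15 below WT in the Apcmin mean, and 15 averaged at least 6. An unadjusted p under 0.05 was reached by 3 of the 30 (3.81% of all probe sets), the dim pair of Tgfbr1 and the second brightest of Bmpr1a, and all 3 were among the dim ones. The genotypes did not overlap in 5 of the 30 (7.88% of all probe sets). The dim probe sets had a median difference of -0.19 and the bright ones one of 0.03. Of all 29882 probe sets with a mean under 6, 62.0% were lower in Apcmin and the median was -0.08. For Tgfb1, Smad1, Smad2, Smad4 and Smad7 the other probe sets of the gene had the sign of the brightest, and for Smad5 neither did.

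**Figure D3:**
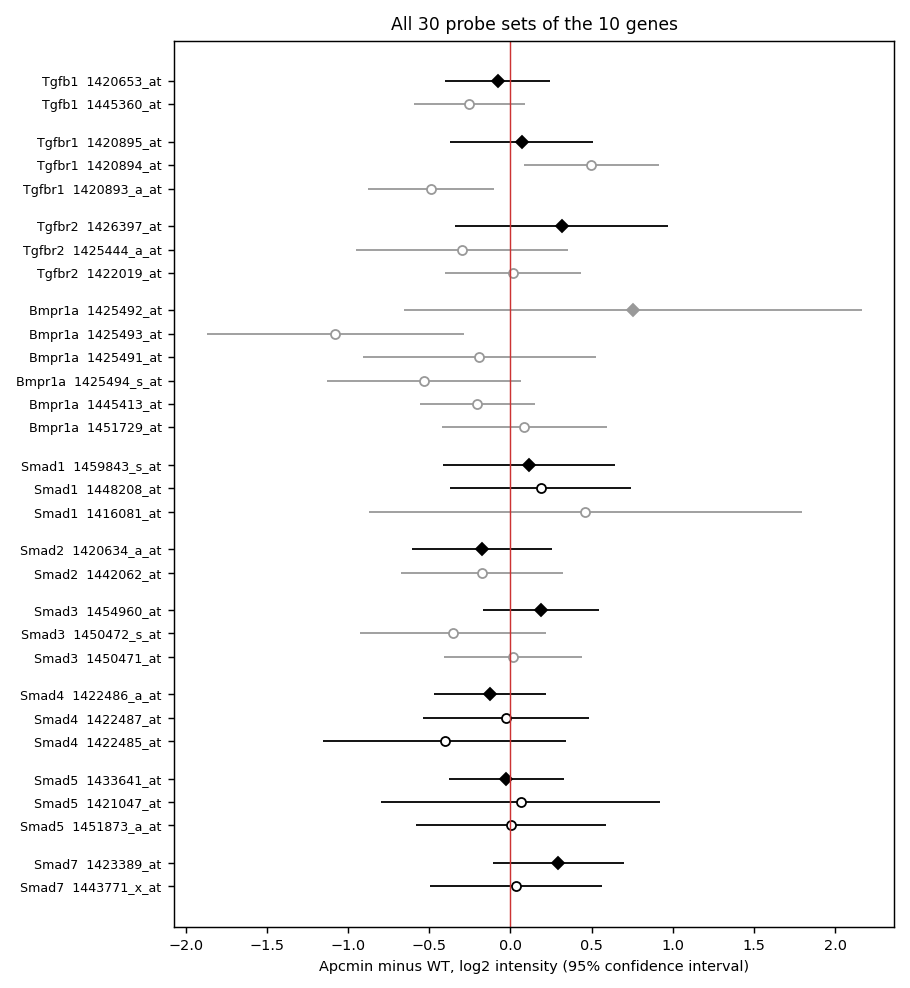
Difference between Apcmin and WT in log2 intensity, with its 95% confidence interval, for the 30 probe sets of the 10 genes. Diamonds are the brightest probe set of each gene, black marks a mean of at least 6 and grey a lower one, and the intervals that leave out 0 are the 3 grey ones of Tgfbr1 and Bmpr1a.

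Leaving out each array in turn gave 6 values for each gene, and 0 of the 10 genes passed in any of these fits. Tgfb1, Tgfbr2, Bmpr1a, Smad2, Smad3, Smad4 and Smad7 kept their sign in all 6. Tgfbr1, Smad1 and Smad5 did not, with ranges from -0.04 to 0.22, from -0.07 to 0.23 and from -0.09 to 0.07. The median difference of the 10 genes ran from 0.0053 to 0.22, the highest without WT replicate 3. In that fit 3 of the 10 genes did not overlap, beside 32.8% of all genes. Without both arrays of high Y-linked signal the median was 0.23, and 3 of the 10 genes did not overlap, beside 44.7% of all genes.

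**Figure D4:**
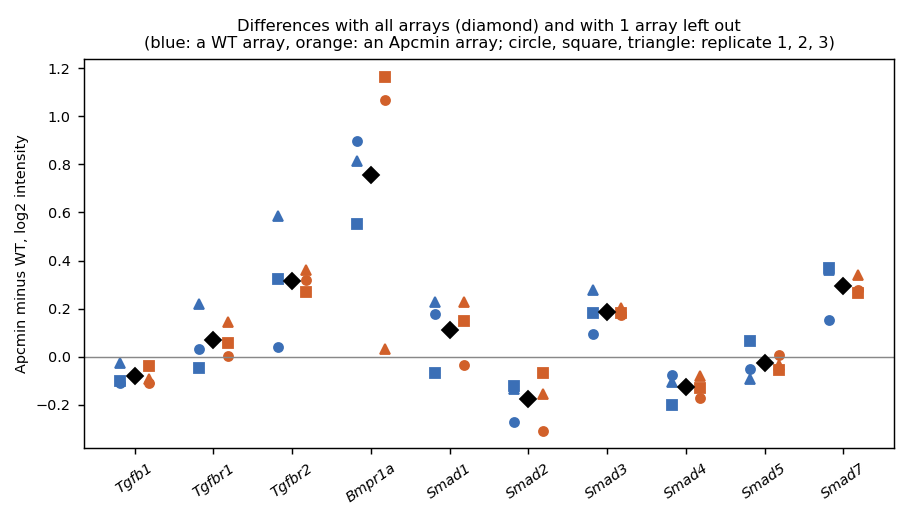
Difference between Apcmin and WT in log2 intensity for each of the 10 genes with all 6 arrays (diamond) and with 1 array left out (blue for a WT array, orange for an Apcmin array). The points of Tgfbr2 spread from 0.04 to 0.59 and those of Bmpr1a from 0.03 to 1.16, while those of Tgfb1 and Smad4 stay close together.

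Beyond the 10 genes, 88 of 95 further listed gene symbols of the pathway were measured and 0 passed in limma. Of these, 36 lay above WT and 52 below it, 7 did not overlap between the genotypes (7.73% of all genes), and 1 had an unadjusted p under 0.05 (3.11% of all genes). Neither count stands out from those shares. Their median difference was -0.04, as over all genes.

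The other ligands were dim throughout. All 6 measured ligands of the TGF-beta and activin group averaged lower in Apcmin, by a median of -0.37. None had a group mean above 4.17. Dim genes as a class were lower too, with a median of -0.18 over the 4403 genes with a mean log2 from 2 to 4. With values under 4 set to 4 the median of the 6 ligands was 0. Inhbb, a subunit of activin B, was the gene with an unadjusted p under 0.05, at 4.18, 4.10 and 3.42 in WT and at 3.13, 3.22 and 3.30 in Apcmin (difference -0.68, limma, adjusted p = 0.954). The BMP list had 8 measured genes, of which 2 averaged higher and 6 lower (median -0.12). One of them, Bmp1, is a protease and no ligand of the receptors, and the 7 others had 2 higher and 5 lower, a median of -0.04 and no group mean above 2.63. Markers of T cells and of red cells, which the lineage-negative sort is meant to remove and which were also dim, went the same way. The 4 T cell markers were all lower, with a summed intensity from 30.4 to 40.3 in WT and from 22.5 to 30.0 in Apcmin, and none had a group mean above 3.75. The 3 red cell markers were lower too, from 25.9 to 37.6 in WT and from 14.9 to 16.8 in Apcmin, though Hba-a1 and Alas2 averaged only 2.10 and 2.07 on the log2 scale. All 3 B cell markers had a lower mean, but their sums overlapped, from 272 to 310 in WT and from 214 to 299 in Apcmin. Among endothelial and stromal markers 5 of 8 were lower and the sums overlapped, from 296 to 407 in WT and from 308 to 378 in Apcmin. The part of these cells in the ligand values was not tested.

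Receptors other than the 3 above had 5 of 14 members higher and 9 lower, with a median of -0.05. Acvr1b, the type I receptor for activin, was at 9.55, 9.51 and 9.59 in WT and at 9.21, 9.65 and 9.01 in Apcmin. Its Apcmin arrays held both extremes, and it did not pass (difference -0.26). Tgfbr3, a coreceptor that presents TGF-beta to Tgfbr2, was at 7.03, 7.78 and 8.15 in WT and at 7.92, 7.85 and 7.81 in Apcmin. As in Tgfbr2, WT replicate 1 was the lowest array and WT replicate 3 the highest, and the difference of 0.20 became -0.11 without WT replicate 1.

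Genes that hold TGF-beta latent or activate it had 4 of 11 members higher and 7 lower (median -0.06). Nrros, which anchors latent TGF-beta on myeloid cells, averaged 8.77 ± 0.04 (SD, n = 3) for WT against 8.59 ± 0.08 for Apcmin, lower on each Apcmin array, and did not pass (difference -0.18). Furin, a protease that matures the TGF-beta precursor, differed by 0.06. Among extracellular antagonists 4 of 9 were higher and 5 lower (median -0.04). Fstl3, which binds activin, was at 8.63, 8.16 and 8.12 in WT and at 7.99, 8.03 and 7.39 in Apcmin, below WT on each array (difference -0.50, limma, unadjusted p = 0.0744, adjusted p = 0.954). Fstl1, a secreted relative that acts on BMP signalling, differed by 0.49, with overlapping values.

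Of 27 other Smads, regulators and cofactors, 18 averaged higher and 9 lower (median 0.04, and 0.11 without WT replicate 3). Smurf2, a ubiquitin ligase that Smad7 brings to the receptors, averaged 7.25 ± 0.32 (SD, n = 3) for WT against 7.57 ± 0.21 for Apcmin, and the groups overlapped. Ski, a repressor of Smad3 and Smad4, was at 8.83 ± 0.13 and 8.63 ± 0.04 and lower on each Apcmin array, but the mean over its probe sets differed by 0.20 the other way. The remaining Smad genes were dim, Smad6 at 3.93 ± 0.61 and 3.84 ± 0.19, and Smad9 at 3.04 ± 0.22 and 2.79 ± 0.29.

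Transcriptional targets, Smad7 among them, had 6 of 19 members higher and 13 lower in Apcmin, with a median of -0.12, and of 0.003 without WT replicate 3. Gadd45b, a stress gene that TGF-beta induces, differed by -0.40, and Skil, a repressor that limits Smad signalling, by 0.10, both with overlapping groups. The Id genes, readouts of BMP signalling picked here after their values were seen, averaged lower with all 6 arrays and did not pass (limma, adjusted p = 0.954 for Id1). Id1 was at 5.85, 4.92 and 4.88 in WT and at 4.54, 4.38 and 4.96 in Apcmin, where WT replicate 1 stood high and the other arrays overlapped. Its difference was -0.59, and -0.27 without that array. Id3 differed by -0.26, and Id2 by -0.13 with all arrays and by 0.12 without both arrays of high Y-linked signal. Id1 and Id3 were dim. Id1 averaged 4.92, and the Id3 values lay between 3.13 and 3.97, wholly under the floor of 4. The median difference of genes with a mean log2 from 2 to 4 was itself -0.18, so no direction is drawn from Id3.

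**Figure D5:**
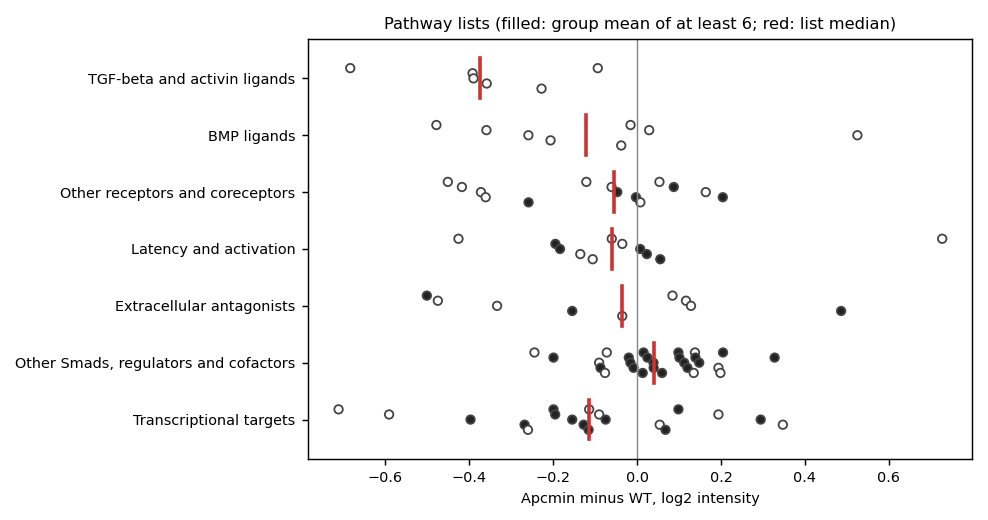
Difference between Apcmin and WT in log2 intensity for each measured gene of the 7 pathway lists, 1 point per gene, filled where a group mean is at least 6, with the list median as a red line. The ligand lists, which include the protease Bmp1, hold open points only and lie mostly below 0, and the medians of the 5 other lists lie between -0.12 and 0.04.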

How the data were processed

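The 6 arrays (3 WT, 3 Apcmin) took their genotype from the sample titles. The authors' deposited table gives linear, already normalized intensity values without detection calls, and precision is limited by the number of arrays. The submitters' processing notes name RMA, with a version not given in the sources used here. Log2 of the deposited values was taken with no pseudocount. Of 45101 probe sets, 64 controls were left out. Probe sets were named from the platform annotation, with 34945 holding 1 symbol, 932 several and 9160 none. RefSeq identifiers of GRCm38.p6 matched 34741 and changed 0. The genotypes were compared with limma 3.58.1 in R 4.3.3 (lmFit, eBayes, genotype as the only term), with Benjamini-Hochberg adjustment over 45037 probe sets at 0.05. The step was tested on simulated data. Correlations between genes were tested by two-sided exact permutation over the 6 arrays. Sums of intensity over a marker list are on the linear scale.

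The members and lists were chosen with earlier results of these data known. The 10 genes were all named. Of each pathway list, the text could name up to 3 bright genes (a group mean of at least 6) per direction, by smallest p. It names 1 per direction, and Gadd45b for the targets because Ski is named in another list. Further, Inhbb, Smad6, Smad9, Id1, Id2 and Id3 were named after their values were seen. The 7 listed symbols with no value were not analysed here, and 1 of them, Lrrc33, is another name of Nrros, which was measured. Upstream windows were used for 7 of the 10 genes. Alternatives were an added intensity of 16, quantile normalization, centring on bright probe sets, a filter at 6, a floor at 4, a variance trend, array weights, the replicate block, a Y-linked covariate, averaging a gene's probe sets, leaving out each array and, added after seeing the data, leaving out both arrays with high Y-linked values.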

Additional observations from a re-analysis of the deposited data

How the results depend on the processing

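Across 17 alternatives, 0 of the 10 genes and 0 probe sets passed the adjusted threshold, and 160 of 169 differences of the 10 genes kept their sign. Bmpr1a has no value with the filter at 6. The smallest adjusted p of the 10 genes in any alternative was 0.362. Averaging a gene's probe sets gave a difference of -0.19 for Bmpr1a, -0.051 for Smad3, 0.014 for Smad5, 0.20 for Ski and -0.13 for Skil. Leaving out each array in turn gave ranges from -0.044 to 0.22 for Tgfbr1, from -0.067 to 0.23 for Smad1, from -0.093 to 0.065 for Smad5, from -0.11 to 0.45 for Tgfbr3, from -0.12 to 0.21 for Skil, from -0.43 to 0.16 for Smad6 and from -0.43 to 0.090 for Id2. Without both arrays of high Y-linked values the differences were 0.015 for Tgfb1, 0.086 for Smad6 and 0.12 for Id2. The cause of these changes of sign was not tested.

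The median difference of the 10 genes was 0.09. It was -0.020 with probe sets averaged, 0.23 without both arrays of high Y-linked values, and from 0.0053 to 0.22 when each array was left out. The number of the 10 genes whose groups did not overlap was 2 after quantile normalization (8.22% of all genes), 2 after centring (7.78%), 2 with probe sets averaged (7.73%), 3 without both arrays of high Y-linked values (44.7%) and from 1 to 3 when each array was left out (13.8% to 32.8%). The number with an unadjusted p under 0.05 ran from 0 to 1. The 1 came without WT replicate 3, where 5864 of 45037 probe sets were under 0.05. Over all probe sets 1714 had an unadjusted p under 0.05, 911 with the floor at 4, 2717 with array weights, 4272 without both arrays of high Y-linked values, and from 1267 to 5864 when each array was left out, the most without WT replicate 3.

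Each replicate number occurs in both genotypes, so the replicate block cannot change a difference, and that of Smad7 was 0.29 as without it. In the fit with the block 0 genes passed, and 1398 probe sets had an unadjusted p under 0.05 where the fit without it had 1714. The labels do not say whether equal numbers pair the arrays. Deviations from the genotype means correlated by -0.05, -0.07 and -0.23 for arrays of equal number. With 3 arrays per genotype these values cannot decide whether the arrays were paired. The number of arrays and the dimness of Bmpr1a and of the ligands limit what could be seen.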
